A study of Mus musculus with 12 samples.

Results

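The 10 genes described here carry amino acids and small peptides across the membranes of gut epithelial cells. They were measured in the mucosa of the ileum and the colon, in mice bred to lack PPARβ/δ in cells with FSP promoter activity and in their floxed littermates. They were Slc6a19, Slc6a20a, Slc7a9, Slc3a1, Slc15a1, Slc1a1, Slc36a1, Slc7a7, Slc7a8 and Slc43a2. They were picked by name, and the list was drawn up with earlier results of these data known. Every array row was taken whose platform annotation gives exactly 1 gene symbol and whose symbol is one of the 10. This gave 10 of 31276 genes and 341 of 580167 rows, and all 10 were measured and tested, since no filter on low values was used.

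Absorption of digested protein in the small intestine proceeds through carriers on both faces of the enterocyte. Amino acids enter from the lumen one at a time through sodium-coupled carriers and exchangers, small peptides enter together with protons, and a separate group of carriers on the basolateral face releases amino acids to the blood. Several exchangers consist of a light chain that carries the substrate and a heavy chain that brings it to the membrane. The colon meets little digested protein in its lumen, and its surface cells are known mainly for the transport of salt, water and short-chain fatty acids.

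The 12 arrays formed 4 groups of 3, namely ileum knockout, ileum floxed, colon knockout and colon floxed. All mice were untreated male C57BL6/J littermates, 4 to 6 weeks old, and all carried floxed alleles of Ppard. Its product is PPARβ/δ, a nuclear receptor that binds fatty acids. Knockout mice (FSPCre-PPARB -/-) also carried a Cre recombinase under the FSP promoter, which is named for a protein of fibroblasts, and the floxed mice (PPARB flox/flox) did not. Mucosa was cut from tissue sections by laser microdissection, and its RNA was amplified and hybridised to an array that covers parts of exons (exon regions) and exon junctions. The labels do not say whether same-numbered ileum and colon samples came from 1 mouse or that replicates came from separate mice, so the p-values cover the spread among these arrays, and part of that spread may be technical. One label field names sectioned tumours as the source, whereas the titles and the tissue field name mucosa.

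The gene value was the median of a gene's rows on an array, on the log2 scale of the deposited table, so a difference of 1 is a doubling of signal. The targeted gene itself, Ppard, had a knockout minus floxed difference of 0.39 in ileum and 0.15 in colon (limma, adjusted p = 0.711 and 0.890), so a lower signal in knockout mucosa was not detected. Which of its rows lie in the deleted stretch is not known here, and whole mucosa was hybridised. The tissue labels were checked against defining markers. Fabp6, the bile acid binding protein of the ileum, had mean values of 10.74 ± 0.28 in ileum knockout, 10.56 ± 0.60 in ileum floxed, 3.42 ± 0.51 in colon knockout and 3.75 ± 0.54 in colon floxed mucosa (SD, n = 3 each). Car1, a carbonic anhydrase of colonocytes, had 3.22 ± 0.42, 2.77 ± 0.19, 10.30 ± 0.52 and 8.96 ± 1.54 in the same order of groups. Sis, a brush border disaccharidase, and Slc10a2, the ileal bile acid carrier, were higher in ileum by 3.35 and 2.24, and the colonocyte genes Aqp8 and Slc26a3 were lower in ileum, with differences of -1.56 and -1.26 (limma, adjusted p at most 0.0396 for these 4 genes). Ileum and colon overlapped in Slc26a3, where the lowest colon array, colon knockout 1, had 4.85. On the first principal component of all genes ileum knockout 1 was separate at -72.3, against -35.4 to 43.9 for the rest, and on the third colon floxed 2 was separate at 48.8, against -11.7 to 13.0.

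Of the 10 transporters 8 were higher in ileum than in colon mucosa, and none was called lower. Over both genotypes together, Slc6a19, Slc15a1 and Slc7a9 showed the largest differences, with 6.27-fold, 5.73-fold and 4.58-fold higher signal in ileum. Slc3a1, Slc43a2, Slc7a7, Slc6a20a and Slc1a1 followed with 3.49-fold, 3.19-fold, 3.17-fold, 2.50-fold and 2.28-fold. Slc7a8 and Slc36a1 were not called, and the point estimate of Slc36a1 was lower in ileum. The test was limma over 12 arrays with Benjamini-Hochberg adjustment over 31276 genes, called at 0.05. Of all genes 1.81% were called in this contrast, 1.03% as higher and 0.78% as lower, while 8 of 10 members were called, all as higher. The median difference of the members was 1.67, and that of all genes was -0.01. For the 8 called members all 6 ileum arrays lay above all 6 colon arrays, a pattern that 0.959% of all genes showed. Whether less signal in colon reflects fewer cells that make the RNA or less RNA in each cell cannot be told apart in mucosa.

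**Figure D1:**
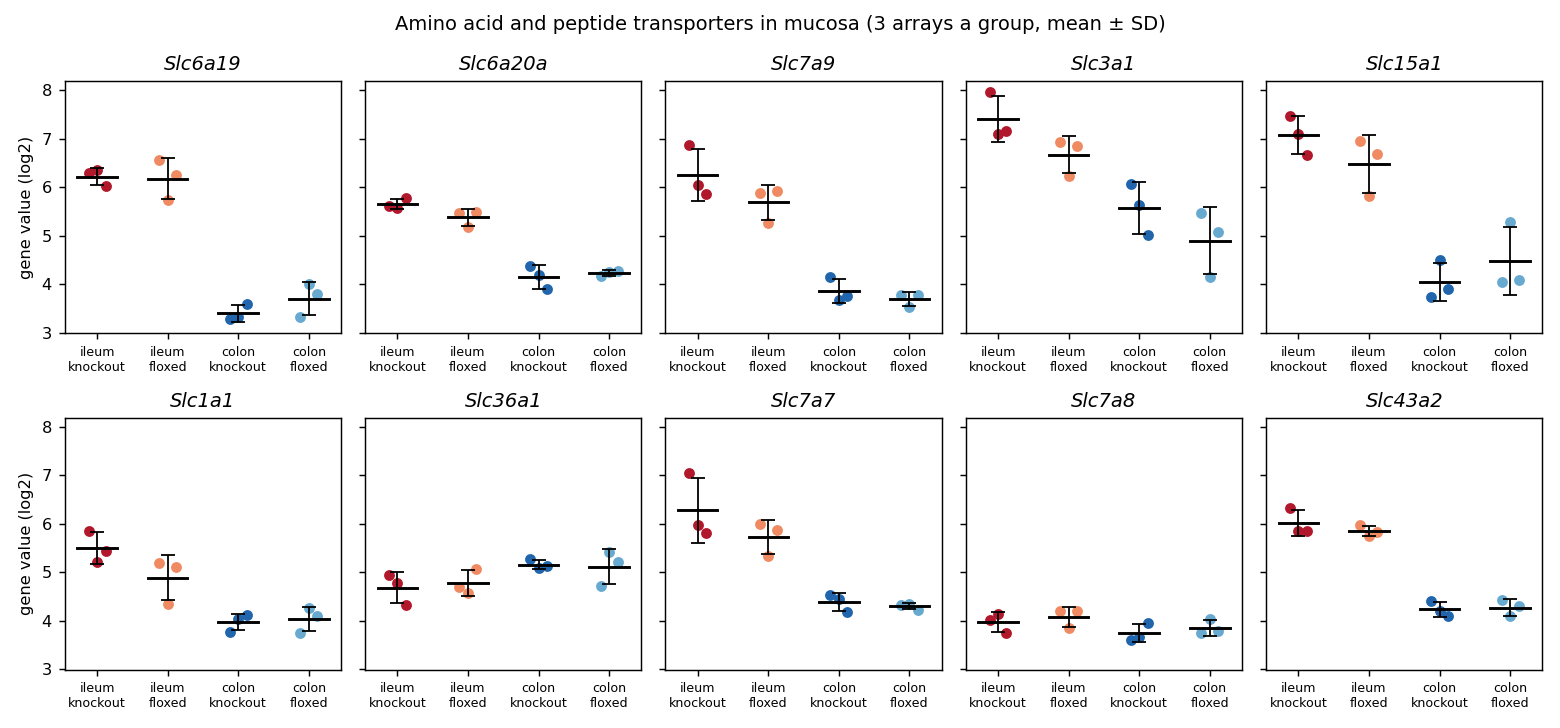
Gene value (log2) of the 10 transporters in each of the 12 arrays, with ileum knockout, ileum floxed, colon knockout and colon floxed from left to right; points are arrays, and lines and bars are the mean and the SD of 3 arrays. For 8 genes every ileum array lies above every colon array, whereas Slc36a1 and Slc7a8 overlap between tissues; heights of different genes are not to be compared.

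The apical carriers of neutral and imino acids came from one gene family. Slc6a19 is the sodium-coupled carrier that takes most neutral amino acids from the lumen. Its values were 6.29, 6.35 and 6.02 in ileum knockout and 6.55, 5.73 and 6.25 in ileum floxed mucosa, against 3.27, 3.33 and 3.59 in colon knockout and 3.32, 3.99 and 3.79 in colon floxed mucosa. All ileum arrays lay above all colon arrays, and the genotypes overlapped in each tissue. The difference over both genotypes was 2.65 (SE 0.16, 95% interval 2.31 to 2.99, adjusted p = 9.55e-07). Slc6a20a carries proline and related imino acids. It had 5.61, 5.57 and 5.78 in ileum knockout and 5.46, 5.17 and 5.49 in ileum floxed mucosa, against 4.38, 4.19 and 3.89 in colon knockout and 4.16, 4.25 and 4.27 in colon floxed mucosa. The tissues were again separate, and the 3 ileum knockout arrays lay just above the 3 ileum floxed arrays. The regional difference was 1.32 (SE 0.11, 95% interval 1.09 to 1.56, adjusted p = 1.53e-05). Slc6a20b, a close copy of Slc6a20a, had a smaller difference of 0.58 (adjusted p = 0.0333), and rows of near-identical genes may share signal, so the size of either value is uncertain.

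Slc7a9 and Slc3a1 form one exchanger, which brings cystine and the basic amino acids lysine, arginine and ornithine in from the lumen. Slc7a9, the light chain, had 6.87, 6.04 and 5.86 in ileum knockout and 5.87, 5.27 and 5.92 in ileum floxed mucosa, against 4.14, 3.68 and 3.75 in colon knockout and 3.78, 3.54 and 3.77 in colon floxed mucosa. Ileum knockout 1 was the highest of all arrays, and without overlap the ileum lay above the colon by 2.20 (SE 0.18, 95% interval 1.81 to 2.59, adjusted p = 1.56e-05). Slc3a1, the heavy chain, had 7.95, 7.10 and 7.16 in ileum knockout and 6.93, 6.24 and 6.85 in ileum floxed mucosa, against 6.07, 5.64 and 5.01 in colon knockout and 5.47, 4.14 and 5.09 in colon floxed mucosa. Its colon values were more spread than those of most members, with an SD of 0.68 in colon floxed mucosa, where array 2 was lowest. The ileum was higher by 1.80 (SE 0.25, 95% interval 1.25 to 2.35, adjusted p = 0.00167).

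Peptides and acidic amino acids have carriers of their own. Slc15a1, known as PEPT1, takes up dipeptides and tripeptides with protons. Its values were 7.47, 7.10 and 6.67 in ileum knockout and 6.96, 5.81 and 6.68 in ileum floxed mucosa, against 3.75, 4.50 and 3.91 in colon knockout and 4.06, 5.29 and 4.08 in colon floxed mucosa. The lowest ileum array (floxed 2) and the highest colon array (floxed 2) approached each other at 5.81 and 5.29 and did not overlap. The ileum exceeded the colon by 2.52 (SE 0.26, 95% interval 1.96 to 3.08, adjusted p = 0.000124). Slc1a1 takes up glutamate and aspartate with sodium. It had 5.86, 5.21 and 5.43 in ileum knockout and 5.20, 4.36 and 5.11 in ileum floxed mucosa, against 3.78, 4.03 and 4.12 in colon knockout and 3.76, 4.26 and 4.09 in colon floxed mucosa. Ileum floxed 2, at 4.36, was close to the highest colon array at 4.26. The regional difference was 1.19 (SE 0.17, 95% interval 0.83 to 1.55, adjusted p = 0.00163).

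Slc36a1, a proton-coupled carrier of small amino acids that is found on lysosomes as well as at the cell surface, did not share the ileal pattern. It had 4.96, 4.78 and 4.33 in ileum knockout and 4.70, 4.57 and 5.08 in ileum floxed mucosa, against 5.27, 5.08 and 5.14 in colon knockout and 4.72, 5.42 and 5.22 in colon floxed mucosa. The difference was -0.40 (SE 0.15, 95% interval -0.73 to -0.08, limma unadjusted p = 0.0183, adjusted p = 0.333). In knockout mice its ileum arrays all lay below its colon arrays, as they did for 6.24% of all genes, and in floxed mice they overlapped.

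On the basolateral face, Slc7a7 is the light chain of the exchanger that exports basic amino acids against neutral amino acids and sodium. Its values were 7.05, 5.97 and 5.82 in ileum knockout and 6.00, 5.34 and 5.88 in ileum floxed mucosa, against 4.53, 4.46 and 4.18 in colon knockout and 4.33, 4.34 and 4.23 in colon floxed mucosa. Ileum knockout 1 lay more than 1 log2 unit above every other array, and the tissues did not overlap. Ileum was higher by 1.67 (SE 0.20, 95% interval 1.24 to 2.09, adjusted p = 0.000376). Slc43a2 is a uniporter for branched-chain and aromatic neutral amino acids. It had 6.32, 5.86 and 5.85 in ileum knockout and 5.97, 5.76 and 5.83 in ileum floxed mucosa, against 4.41, 4.21 and 4.11 in colon knockout and 4.44, 4.09 and 4.30 in colon floxed mucosa. Its arrays were tight within each tissue, and the difference was 1.67 (SE 0.12, 95% interval 1.42 to 1.92, adjusted p = 3.82e-06). Slc7a8 is the light chain of a second basolateral exchanger, for neutral amino acids. Its values were 4.01, 4.15 and 3.75 in ileum knockout and 4.21, 3.85 and 4.20 in ileum floxed mucosa, against 3.61, 3.67 and 3.95 in colon knockout and 3.75, 4.04 and 3.79 in colon floxed mucosa. The tissues overlapped and the difference was 0.23 (95% interval -0.03 to 0.48, adjusted p = 0.608). Its mean over the 12 arrays, 3.915, was close to the median of all genes on each array, 3.71 to 3.76. Whether weak signal hid a regional difference was not tested.

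The same regional contrast was then read in each genotype alone. In knockout mice 8 of 10 members were called higher in ileum, where 0.79% of all genes were called and 0.48% as higher, and in floxed mice 6 of 10 were called, where 0.588% of all genes were called and 0.396% as higher. The median difference of the members was 1.80 in knockout and 1.51 in floxed mice. Slc6a19 differed by 2.82 in knockout and 2.48 in floxed mice (adjusted p = 2.96e-05 and 0.000123). Slc15a1 had the widest gap between genotypes, with 3.03, or 8.16-fold, in knockout and 2.01, or 4.03-fold, in floxed mice (adjusted p = 0.000943 and 0.027). Slc7a9 had 2.40 and 1.99, Slc43a2 1.77 and 1.57, Slc7a7 1.89 and 1.44, and Slc6a20a 1.50 and 1.15, in knockout and floxed mice in that order, all called in both genotypes. Slc3a1 had nearly equal differences of 1.83 and 1.77, with adjusted p = 0.0345 and 0.0506, so it was called in knockout and missed the threshold in floxed mice. Slc1a1 had 1.53 in knockout mice (adjusted p = 0.00647) and 0.85 in floxed mice (adjusted p = 0.258). Slc36a1 and Slc7a8 were not called in either genotype, and Slc36a1 had -0.47 and -0.34. In each genotype the 8 genes called over both genotypes had ileum arrays that lay wholly above the colon arrays, as 5.17% of all genes did in knockout and 5.12% in floxed mice.

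**Figure D2:**
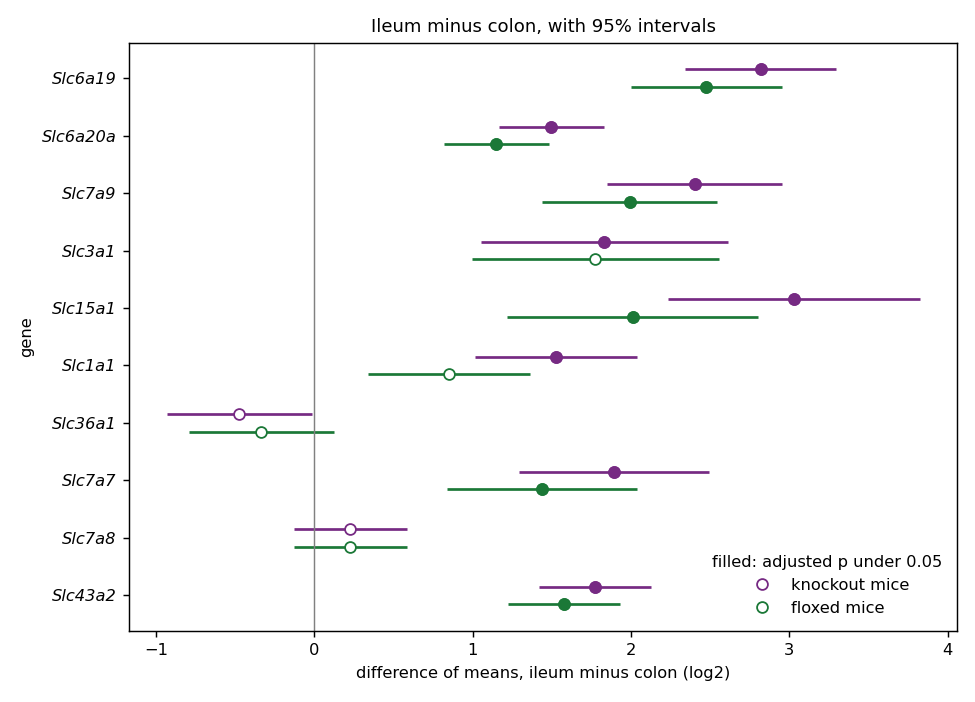
Difference of mean gene values, ileum minus colon (log2), for each transporter in knockout mice (upper of each pair) and floxed mice (lower), with 95% intervals from limma; filled points have an adjusted p under 0.05. The 8 transporters called over both genotypes lie to the right of 0 in both genotypes, Slc36a1 lies to the left, and Slc3a1 and Slc1a1 are filled in knockout mice only.

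Some of these single-genotype calls changed when 1 array was left out. An array of the other genotype does not enter the difference, and leaving it out changed only the spread estimated from all arrays and the adjustment. Slc3a1 in knockout mice stayed at 1.83 without ileum floxed 1 or 3 or colon floxed 3. Slc7a7 in floxed mice stayed at 1.44 without colon knockout 2. Slc3a1 in knockout mice was no longer called without ileum knockout 1, 2 or 3, ileum floxed 1 or 3, colon knockout 2 or 3, or colon floxed 3 (adjusted p = 0.0504 to 0.137), and in floxed mice it passed without ileum knockout 1, ileum floxed 2, colon knockout 1 or 3, or colon floxed 1 (0.0335 to 0.0485). Slc15a1 in floxed mice was lost without ileum floxed 1 or 3 or colon floxed 1 or 3 (0.124 to 0.159), and Slc7a7 without ileum floxed 1 or 3, colon knockout 2, or any colon floxed array (0.0684 to 0.216). Slc1a1 in floxed mice passed without ileum floxed 2 (adjusted p = 0.0411). By processing, Slc3a1 in knockout mice was also lost with the mean of rows or exon regions only (0.107 and 0.136), and in floxed mice it passed under 7 of 10 settings (0.00367 to 0.0487). Slc1a1 in floxed mice passed with array quality weights (0.0405). With junction rows only, Slc6a20a was lost in both genotypes (0.216 in knockout and 0.226 in floxed mice), as was Slc7a7 (0.153 and 0.106), while Slc1a1 was lost in knockout (0.134) and Slc15a1 in floxed mice (0.125). Over both genotypes the same 8 genes were called under all 22 alternative settings.

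Several markers of epithelial cell types differed between tissues in the same arrays. Of 8 small-intestinal enterocyte markers 7 were called higher in ileum over both genotypes, and their summed signal was 3551 to 5317 in ileum knockout, 2352 to 4179 in ileum floxed, 242.5 to 378.3 in colon knockout and 116.4 to 293.4 in colon floxed mucosa. Of 6 colonocyte markers 3 were called lower in ileum, and Muc3, with a difference of 0.33 in the other direction, was not called. Summed colonocyte signal was 860.7 to 1512, 520.3 to 937.5, 1619 to 2727 and 1095 to 2122 in the same order of groups, so these sums overlapped between tissues. Muc3 was the brightest of the 6 on every ileum array, from 8.83 (floxed 2) to 10.49 (knockout 1) on the log2 scale. No other colonocyte marker exceeded 4.89 in ileum, so the ileum sums were mostly Muc3. Car1 and Aqp8 did not overlap between tissues. Their highest ileum values were 3.60 and 4.315, and their lowest colon values were 7.33 and 4.57. Of 4 markers shared by all epithelium 1 was called higher in ileum, with sums of 1406 to 2436, 814.4 to 1548, 860.1 to 1339 and 675.4 to 1124 in the same order of groups. The summed signal of the 10 transporters was 614.3 to 986.5 in ileum knockout, 412.5 to 650.6 in ileum floxed, 190.9 to 237.6 in colon knockout and 197.8 to 219.0 in colon floxed mucosa. The part of cell composition in the regional differences was not tested.

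The promoters of 3 members that were all higher in ileum are shown because they differ in their motif content. The sequences are the 250 bases before the RefSeq start on GRCm38.p6, in the direction of the gene, for Slc3a1 (chr17:85028097-85028346, plus strand), Slc6a20a (chr9:123678833-123679082, minus strand) and Slc15a1 (chr14:121505255-121505504, minus strand). Capitals mark matches, on either strand, to 5 motifs of factors known from gut epithelium and of the core promoter. They were CAAAGTC for HNF4, GTTAAT for HNF1, TTTATNG for CDX, AGATAA for the GATA family and, for the core promoter element called the TATA box, TATAAA. Slc3a1 holds the most matches of any member, Slc6a20a holds 1, and Slc15a1 holds none although its regional difference was among the largest.
Slc3a1: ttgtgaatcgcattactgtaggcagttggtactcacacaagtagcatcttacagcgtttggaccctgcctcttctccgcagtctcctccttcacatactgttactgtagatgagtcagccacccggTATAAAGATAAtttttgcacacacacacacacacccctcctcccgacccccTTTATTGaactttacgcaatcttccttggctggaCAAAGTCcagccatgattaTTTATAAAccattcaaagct
Slc6a20a: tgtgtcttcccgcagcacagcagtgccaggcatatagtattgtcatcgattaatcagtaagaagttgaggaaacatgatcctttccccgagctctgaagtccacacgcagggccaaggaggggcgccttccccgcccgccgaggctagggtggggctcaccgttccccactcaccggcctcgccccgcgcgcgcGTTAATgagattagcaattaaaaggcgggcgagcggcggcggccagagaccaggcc
Slc15a1: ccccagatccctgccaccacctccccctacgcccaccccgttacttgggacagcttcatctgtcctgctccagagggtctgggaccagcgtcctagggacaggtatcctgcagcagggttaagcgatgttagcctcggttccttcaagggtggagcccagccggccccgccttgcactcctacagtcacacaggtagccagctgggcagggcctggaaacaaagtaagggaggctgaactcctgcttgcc
In Slc3a1 the HNF4 match ends 33 bases before the start, the CDX match 67 bases, and a GATA match at 119 to 114 bases overlaps a TATA box match at 124 to 119 bases. A TATA box match also lies 18 to 13 bases before the start and overlaps one on the opposite strand. The HNF1 match of Slc6a20a lies 56 to 51 bases before the start. Among 27025 genes with a RefSeq promoter of this length, 4.3% hold the HNF4 motif, 7.5% the HNF1 motif, 11.3% the CDX motif, 11.4% the GATA motif and 14.3% the TATA box. The 10 members have 16 such promoters, against 32851 for the 27025 genes, and the motifs were found for 2, 3, 1, 3 and 1 of the 10 genes in that order. Slc7a7, which has 5 of the 16, is among the genes counted for HNF4, HNF1 and GATA. Slc36a1, which was not called between tissues, is among those counted for HNF1. These counts were not tested against the shares of all genes, and more promoters give a gene more windows to match. The share of G and C was 45.6% in Slc3a1, 61.2% in Slc6a20a and 62.0% in Slc15a1. A match is a run of letters and was not tested for binding, and a window without one says nothing of the factor.

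Single array rows showed how evenly each gene moved along its length. Rows were tested with limma over 719071 rows, of which 0.94% were called between tissues over both genotypes. Of the 341 member rows 165 were called, all higher in ileum, 280 had a positive difference, and the median difference was 1.21. Slc15a1 had the largest share of called rows, with 41 of 48. All 48 were positive, with differences of 0.12 to 4.32, as were all 20 rows of Slc3a1. Slc6a19 had 29 of 44 called, Slc7a9 24 of 35, Slc7a7 14 of 25, Slc43a2 26 of 55, Slc1a1 13 of 31, Slc3a1 8 of 20 and Slc6a20a 10 of 28. Slc36a1 and Slc7a8 had no called row of 33 and 22, and 29 of 33 rows of Slc36a1 were negative. Of exon regions 52.5% were called, and of junctions 42.7%. In knockout mice alone 112 of the 341 rows were called (0.381% of all rows), and in floxed mice 70 (0.285% of all rows). For Slc15a1 these were 31 of 48 rows in knockout and 3 of 48 in floxed mice. Its differences were nevertheless positive in 48 of 48 rows in knockout and 46 of 48 in floxed mice, with medians of 2.96 and 1.87. A difference between the genotypes in this regional gap was called for 0 of its 48 rows.

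Within genes the rows ran over a wide range. The highest row of Slc6a19 was a junction at 9.64 ± 0.77 in ileum and 2.69 ± 0.24 in colon (SD, n = 6 each; limma over rows, adjusted p = 2.96e-07). Its colon mean lay within the range of the negative control medians of the arrays, and the measured difference was 6.95. With any colon array below its own negative control median raised to that median, the difference was at least 6.90. The gene value of Slc6a19, a median over its rows, differed by 2.65. Slc7a9 had an exon region at 7.99 ± 0.67 in ileum and 3.38 ± 1.03 in colon, and Slc43a2 a junction at 7.45 ± 0.44 in ileum and 3.71 ± 0.88 in colon (SD, n = 6 each). The highest junction of Slc15a1 differed by 4.32. Those of Slc6a20a and Slc7a7 had colon means of 1.93 and 2.66, at or below the highest negative control median, and with the same floor they differed by at least 3.53 and 3.54. At the other end, 1 exon region of Slc7a7 had 5.22 in ileum and 5.56 in colon and 1 of Slc1a1 had 6.64 in ileum and 6.93 in colon, both bright and without a call. Called rows of the 10 genes had a median value of 5.46 and rows that were not called 4.65, whereas in Slc6a20a called rows had 4.22 and the others 5.17. The 5222 negative control rows had array medians of 2.46 to 2.71, whereas 11 control rows rich in G and C had 6.01 to 7.06, so no common level marks where a row is only background.

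**Figure D3:**
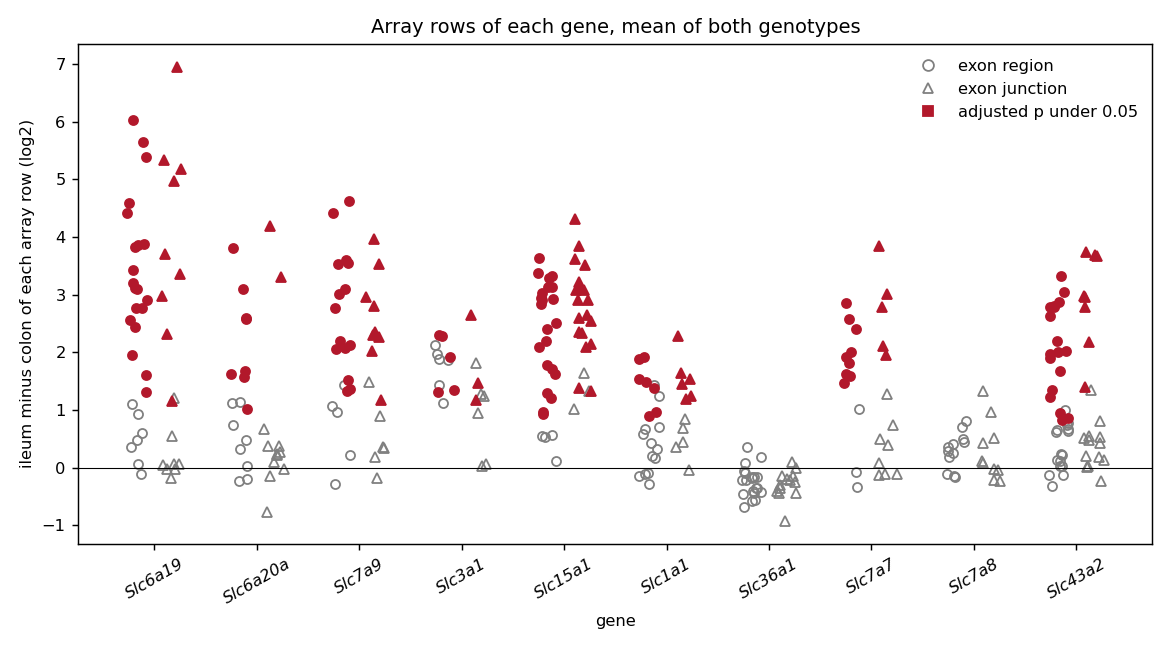
Difference of each array row, ileum minus colon over both genotypes (log2), for the 341 rows of the 10 transporters; circles are exon regions, triangles are junctions, and filled symbols have an adjusted p under 0.05 over 719071 rows. Called rows all lie above 0, the highest row of Slc6a19 reaches a measured 6.95, and Slc36a1 and Slc7a8 have no filled symbol.

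Genes with the profile most like that of a member were found by the root mean square difference between log2 profiles over the 12 arrays, each centred on its own mean, among 17412 named genes. The points share their arrays, and the values describe likeness in these data only. Slc6a19 was closest to Xpnpep2 (0.25), Mttp (0.31) and Slc28a2b (0.34), and among members to Slc15a1 (0.38). Xpnpep2 is a membrane aminopeptidase and Mttp loads lipid onto lipoproteins. Slc15a1 was closest to Slc28a2b (0.38), Rbp2 (0.42) and Nos2 (0.43). Slc7a9 was closest to Tm6sf2, Suox and Acsl5 (all 0.26), and among members to Slc7a7 (0.30), ahead of its own heavy chain Slc3a1 (0.39). For Slc3a1 the closest were Septin5 (0.22), Cyp4f14 (0.24) and Tmigd1 (0.26), and Slc7a9 was its closest member.

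Slc7a7 was closest to Mme (0.18), Malrd1 (0.19) and Ace (0.20). Mme and Ace are peptidases of the cell surface. Slc43a2 was closest to Abcg5 (0.18), Ggt1 (0.19) and Pepd (0.20), and Slc6a20a to Slc46a3 (0.16), Abcg8 (0.17) and Dnm1 (0.21), each being the other's closest member (0.25). Abcg5 and Abcg8 form a sterol exporter, Ggt1 splits glutathione and Pepd splits dipeptides that end in proline. Slc1a1 was closest to Gk (0.24), Upp1 (0.25) and Snx9 (0.26). Slc36a1 lay near Fam166a (0.14), Ndufa13 and Serpina3c (both 0.18), and Slc7a8 near Rbp7 (0.09), Adcy8 and Ppp1r16b (both 0.10). The profiles of Slc36a1 and Slc7a8 themselves varied little, with an SD of 0.32 and 0.21 over the 12 arrays, against 1.41 for Slc6a19 and 1.42 for Slc15a1.

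Other carriers of amino acids and peptides at the plasma membrane were mostly not called. Of 32 genes listed as such, a list that also holds the creatine carrier Slc6a8, 6 were called higher and 1 lower in ileum over both genotypes. Of all genes 1.03% were called higher and 0.78% lower. The median difference of the 32 was -0.02. Slc7a15 had 5.27 ± 0.41 in ileum knockout, 5.26 ± 0.22 in ileum floxed, 3.80 ± 0.27 in colon knockout and 3.55 ± 0.37 in colon floxed mucosa, a regional difference of 1.59 (adjusted p = 0.000158). Slc16a10, a carrier of aromatic amino acids, had 5.47 ± 0.39, 5.13 ± 0.26, 3.88 ± 0.19 and 4.14 ± 0.17 in the same order of groups, a difference of 1.29 (adjusted p = 0.000276). Slc3a2, the heavy chain that pairs with Slc7a7 and Slc7a8, had 6.49 ± 0.23, 6.26 ± 0.29, 5.73 ± 0.21 and 5.69 ± 0.15, a difference of 0.67 (adjusted p = 0.0174). The creatine carrier Slc6a8 (0.87) and the glutamine carrier Slc38a3 (0.69) were also higher (adjusted p = 0.0129 and 0.00249), as was Slc6a20b. Slc1a5, a neutral amino acid exchanger, was lower in ileum, with a difference of -0.62 (adjusted p = 0.0183). Slc6a14, Slc6a18 and Slc38a5 were not called, with differences of -0.68, 0.22 and -0.20 (adjusted p = 0.661, 0.763 and 0.776). In the lysosomal list 0 of 4 genes were called by limma, and 0 of 4 had an unadjusted p under 0.05.

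Genes that act beside these carriers at the brush border split by direction. Of 5 genes measured, Vil1, an actin bundler of microvilli, Pdzk1 and Slc9a3r1, a pair of scaffolds beneath the membrane, were higher in ileum by 1.44, 1.29 and 1.16 (adjusted p = 0.00192, 0.000162 and 0.00515). Slc9a3, the exchanger that returns sodium and exports the protons that peptide uptake uses, was lower in ileum. It had 5.03 ± 0.22 in ileum knockout, 4.79 ± 0.36 in ileum floxed, 6.92 ± 0.51 in colon knockout and 6.27 ± 0.50 in colon floxed mucosa (SD, n = 3 each), a difference of -1.68 (adjusted p = 0.000495). Cltrn, which brings Slc6a19 to the surface in kidney, differed by -0.18 (adjusted p = 0.771).

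**Figure D4:**
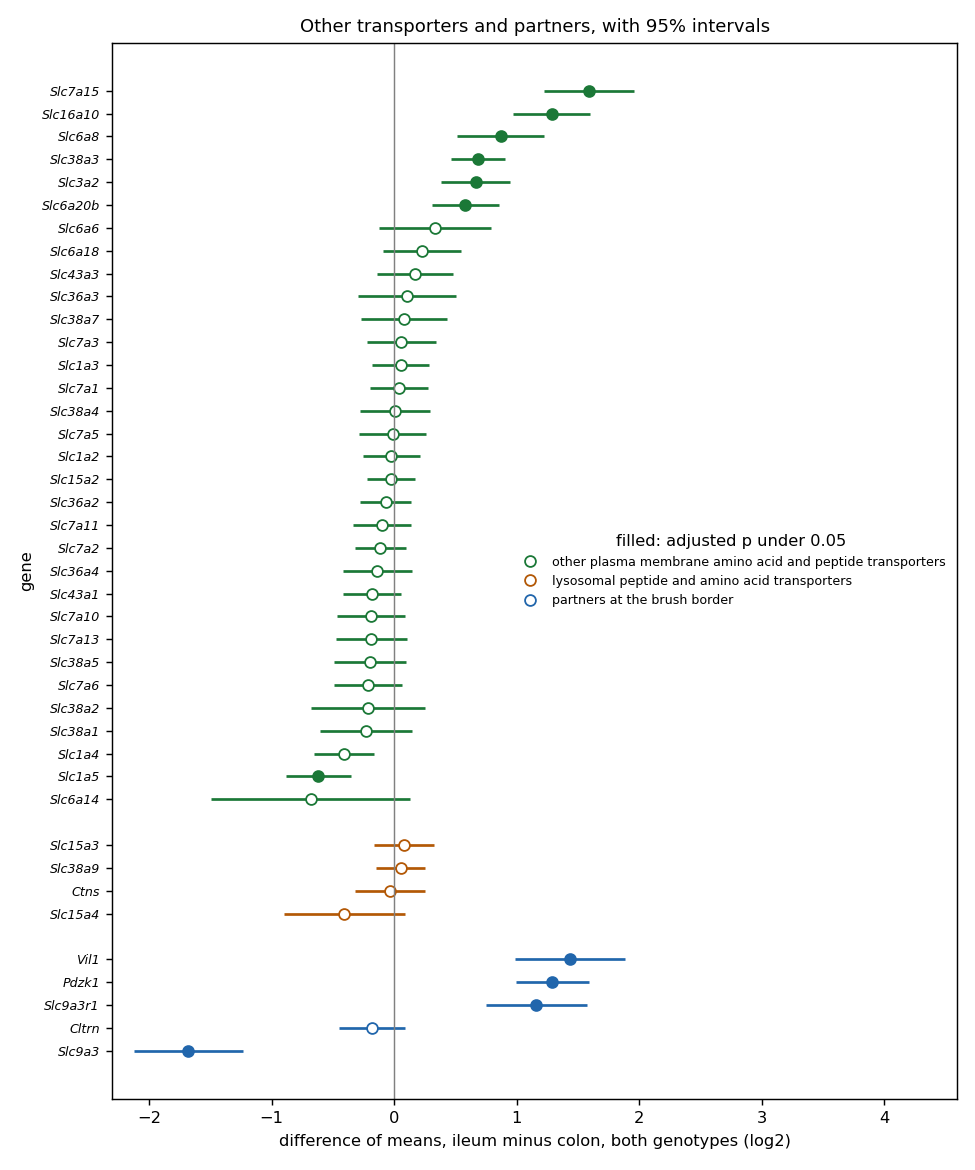
Difference of mean gene values, ileum minus colon over both genotypes (log2), with 95% intervals, for 32 other plasma membrane transporters, 4 lysosomal transporters and 5 partner genes; filled points have an adjusted p under 0.05. Most transporters lie near 0, whereas Slc7a15, Slc16a10, Vil1, Pdzk1 and Slc9a3r1 lie above 1 and Slc9a3 lies at -1.68.

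The second question of the design, whether loss of PPARβ/δ in FSP-expressing cells changed the mucosa, gave no called transporter in either tissue. In ileum 0 of 10 members were called, and 0% of all genes were, while 2 members and 6.65% of all genes had an unadjusted p under 0.05. In colon 0 members were called, as were 0% of all genes, and 0 members and 4.78% of all genes had an unadjusted p under 0.05. Estimates in ileum were positive for 8 of 10 members and 48.7% of all genes, with a median of 0.41 for the members and -0.01 for all genes. In colon 4 of 10 members and 49% of all genes were positive, and the members' median was -0.05.

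In ileum Slc3a1 had the largest estimate, 0.73 (95% interval -0.05 to 1.51, adjusted p = 0.711). Slc1a1, at 0.61 (95% interval 0.10 to 1.13), and Slc7a9, at 0.57 (95% interval 0.02 to 1.12), had unadjusted p = 0.0227 and 0.0445 and both had adjusted p = 0.711 (limma). Slc15a1 had 0.59 (95% interval -0.20 to 1.39) and Slc7a7 0.54 (95% interval -0.06 to 1.14). Slc6a20a had 0.28 (95% interval -0.05 to 0.61), and Slc43a2 0.16. Slc6a19, the member with the clearest regional difference, had 0.04, with an interval from -0.44 to 0.52. Slc36a1 and Slc7a8 had -0.10 and -0.12. For Slc3a1, Slc1a1 and Slc6a20a every ileum knockout array lay above every ileum floxed array, and 5.06% of all genes showed this.

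The size of these estimates rested in part on ileum knockout 1 and ileum floxed 2. Without ileum knockout 1 the difference was 0.46 for Slc3a1, 0.43 for Slc1a1, 0.40 for Slc15a1, 0.26 for Slc7a9, 0.16 for Slc7a7 and 0.01 for Slc43a2. Without ileum floxed 2 it was 0.35 for Slc1a1, 0.26 for Slc15a1, 0.18 for Slc6a20a and -0.19 for Slc6a19. None of the 10 was called without either array.

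Other measures moved with the genotype in ileum. The signal of 11 background control rows, of 15 to 25 G or C among 25 bases, was 6.01 to 6.38 in ileum knockout and 6.60 to 7.06 in ileum floxed arrays, without overlap, and 6.32 to 6.76 in colon knockout and 6.60 to 6.97 in colon floxed arrays. With this signal as a covariate 3 of 10 members were positive in ileum in place of 8, and Slc3a1 had -0.25, Slc7a7 -0.20 and Slc7a9 -0.10. Because this signal was separate between genotypes in ileum, its part and that of the genotype cannot be told apart. Markers of several cell types had positive estimates too, with 0 called by limma in any of these lists. In ileum these were 4 of 4 epithelial markers (median 0.57), 6 of 6 goblet (0.61), 4 of 4 Paneth (1.19), 5 of 5 smooth muscle (0.77), 5 of 5 fibroblast (0.22) and 6 of 8 enterocyte markers (0.37). At an unadjusted p under 0.05 they numbered 1, 2, 3, 2, 0 and 1 in that order, while 6.65% of all genes reached that level. Other lists were less one-sided in ileum. Positive were 4 of 6 colonocyte (median 0.15), 2 of 3 ileal enterocyte (0.18), 3 of 4 macrophage (0.19) and 2 of 4 T cell markers (0.10). Of B and plasma cell markers 1 of 4 was positive (-0.21), and of exocrine pancreas markers 1 of 4 (-0.11). Summed Paneth signal was 160.2 to 1070 in ileum knockout and 124 to 270.8 in ileum floxed mucosa, and summed smooth muscle signal 299.8 to 943.6 in ileum knockout and 202.2 to 363.9 in ileum floxed mucosa. Summed goblet signal was 2981 to 5425 in ileum knockout and 1462 to 2814 in ileum floxed mucosa, without overlap. Summed epithelial signal was 1406 to 2436 in ileum knockout and 814.4 to 1548 in ileum floxed mucosa, and summed fibroblast signal 302.5 to 448.6 in ileum knockout and 289.7 to 307.7 in ileum floxed mucosa, with overlap in both. In colon 4 of 4 epithelial (0.48), 6 of 6 goblet (0.54), 3 of 4 Paneth (0.22), 5 of 5 smooth muscle (0.23), 5 of 5 fibroblast (0.17) and 5 of 8 enterocyte markers (0.12) were positive, while the median of the transporters was -0.05. The part of cell composition in the estimates was not tested.

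In colon the estimates were smaller for most members. Slc3a1 had 0.67 (95% interval -0.11 to 1.45, adjusted p = 0.844), and without colon floxed 2 it had 0.30. Slc15a1 had -0.43 (95% interval -1.22 to 0.37, adjusted p = 0.852), and without that array -0.02. Slc6a19 had -0.30, and the other 7 lay between -0.11 and 0.16. Knockout and floxed arrays overlapped in colon for all 10.

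**Figure D5:**
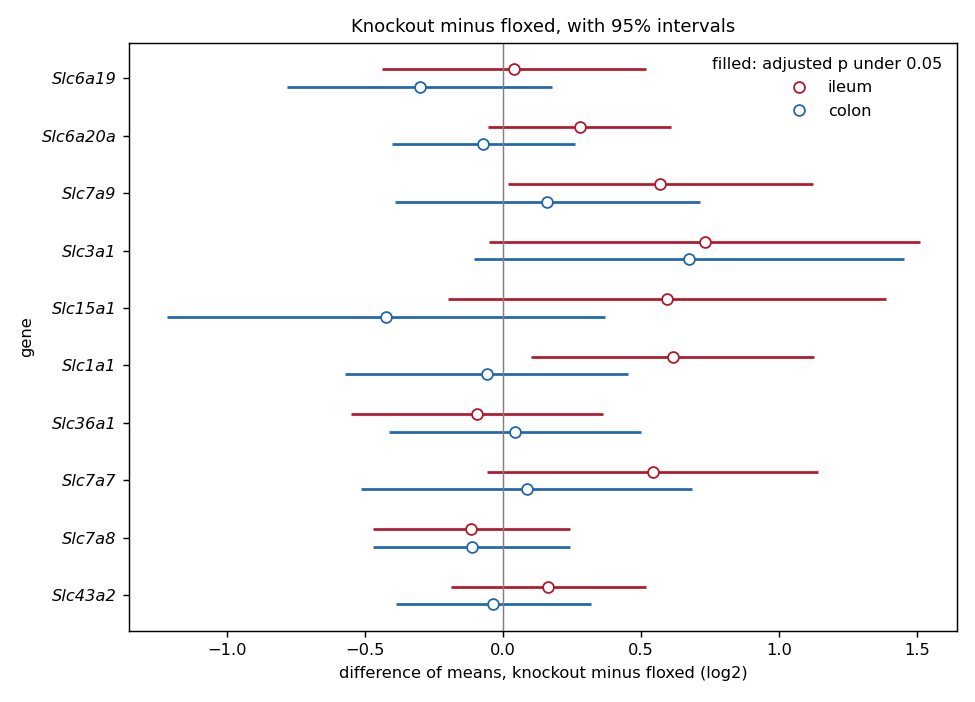
Difference of mean gene values, knockout minus floxed (log2), for each transporter in ileum (upper of each pair) and colon (lower), with 95% intervals from limma; open points have an adjusted p of at least 0.05. All points are open, ileum estimates reach 0.73 for Slc3a1, and the ileum and colon estimates of Slc15a1 lie on opposite sides of 0.

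Averaged over both tissues 0 members and 0% of all genes were called, and 10.7% of all genes had an unadjusted p under 0.05. Slc3a1 was the only member at that level, at 0.70 (95% interval 0.15 to 1.25, unadjusted p = 0.0167, adjusted p = 0.463 by limma). The interaction, which is the ileum difference minus the colon difference, was called for 0 members and 0% of all genes, and 0 members and 2.48% of all genes had an unadjusted p under 0.05. It was largest for Slc15a1, at 1.02 (95% interval -0.10 to 2.14, unadjusted p = 0.0718, adjusted p = 1.00 by limma), and Slc1a1, at 0.67 (95% interval -0.05 to 1.40, unadjusted p = 0.0658, adjusted p = 1.00 by limma). Leaving out colon floxed 2 gave 0.61 for Slc15a1, and leaving out ileum floxed 2 gave 0.41 for Slc1a1. Array quality weights gave 0.53 for Slc15a1, and junction rows only gave 1.57 for Slc15a1 and 0.34 for Slc1a1, for which the mean of rows gave 0.42. The test of the difference itself did not call the wider regional gap of Slc15a1 in knockout than in floxed mice.

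Array rows gave the same count. Of the 341 rows 0 were called between knockout and floxed mucosa in ileum or in colon, and 28 in ileum and 21 in colon had an unadjusted p under 0.05, against 7.29% and 4.99% of all 719071 rows. With 3 arrays a group the intervals stayed wide. That of Slc3a1 in ileum reached 1.51, so a difference of that size is allowed by these data, whereas that of Slc6a19 in ileum ended at 0.52.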

How the data were processed

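RNA of laser-dissected ileum and colon mucosa from knockout and floxed mice was hybridised to exon and junction arrays, 3 arrays a group. The deposited table holds log2 expression values made by the authors. The submitters' processing notes name Partek and RMA without a version. No source used here describes how probes were summarised, or any filter or detection call. RMA brings arrays to a common distribution, so a change of all genes together would not be seen. The table has 725678 rows, 437027 exon regions, 282044 junctions and 6607 controls. Rows were named by the platform annotation, with 1 symbol for 580167 rows, several for 18694 and none for 120210. Of 31383 symbols 29760 were current, 1584 were updated and 39 kept. A gene's value was the median of its rows with 1 symbol, over a median of 11 rows, for 31276 genes. No row was filtered.

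Group means over the 12 arrays were fitted in limma 3.58.1 (lmFit and eBayes, R 4.3.3), with 8 residual and 4.72 prior degrees of freedom. Contrasts were ileum minus colon and knockout minus floxed, alone and averaged, and their interaction. P-values were two-sided with Benjamini-Hochberg adjustment over all genes and called at 0.05. Rows were tested the same way over 719071 rows. The script was tested on simulated data. The number of arrays limits the precision. Other genes were named by a rule that took members of each list called between tissues (at most 6 a direction) and a few fixed genes, and the 3 genes of most similar profile. The 10 transporters, the lists and the motifs were chosen with earlier results of these data known. Promoters came from RefSeq (GRCm38.p6), for 10 of 10 members, and no genome was used. Alternatives were 10 settings and the leaving out of each of the 12 arrays.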

Additional observations from a re-analysis of the deposited data

How the results depend on the processing

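The regional call of the same 8 members over both genotypes was kept under all 22 alternatives (10 settings and 12 arrays left out). For genotype, 23 estimates (10 members in ileum and in colon, Slc3a1 over both tissues, and the interactions of Slc15a1 and Slc1a1) were recomputed under each alternative. None of these 506 values was called (smallest adjusted p = 0.168), and 35 changed sign. Counts moved as follows, and the cause was not tested. With junction rows only, 5 members were called in knockout mice in place of 8, and all genes called numbered 138 in knockout, 98 in floxed and 330 over both, in place of 247, 184 and 566. Calls that junction rows only ended had differences of 1.00 for Slc6a20a, 1.80 for Slc1a1 and 1.17 for Slc7a7 in knockout mice and 1.01 for Slc6a20a, 1.78 for Slc15a1 and 1.28 for Slc7a7 in floxed mice. Slc3a1 lost in knockout mice had 1.45 with the mean of rows and 1.77 with exon regions only, and Slc1a1 gained in floxed mice had 0.97 with array weights. Array quality weights gave 280 genes in floxed mice. The background covariate gave 415, 334 and 1067 genes, and for knockout minus floxed 3, 1 and 1 positive members in ileum, colon and both, in place of 8, 4 and 7. In ileum this covariate did not overlap between genotypes, so its part and that of the genotype cannot be told apart. Leaving out 1 array gave 135 to 285 genes in knockout and 93 to 218 in floxed mice, 404 to 613 over both, and 7 to 8 and 4 to 8 called members.

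Signs of knockout minus floxed turned as follows. With the mean of rows they were Slc7a8 ileum 0.017, Slc36a1 colon -0.104 and Slc43a2 colon 0.069. With exon regions only they were Slc6a19 ileum -0.023, Slc36a1 ileum 0.041 and colon -0.17, Slc1a1 colon 0.032, Slc7a7 colon -0.067 and Slc43a2 colon 0.024. With junctions only they were Slc1a1 ileum -0.37 and Slc6a20a colon 0.096. With quantile normalization they were Slc6a19 ileum -0.125, Slc43a2 ileum -0.004 and Slc36a1 colon -0.054, and with array weights Slc6a19 ileum -0.076. With the background covariate they were Slc6a19 -0.05, Slc7a9 -0.096, Slc3a1 -0.254, Slc7a7 -0.199 and Slc43a2 -0.171 in ileum, Slc7a9 -0.203, Slc36a1 -0.048 and Slc7a7 -0.319 in colon, and Slc3a1 -0.058 over both. With 1 array left out, ranges that crossed 0 were -0.185 to 0.226 for Slc6a19 and -0.228 to 0.083 for Slc36a1 in ileum, and -0.199 to 0.05 for Slc1a1, -0.155 to 0.192 for Slc36a1, -0.186 to 0.059 for Slc6a20a and -0.129 to 0.044 for Slc43a2 in colon.

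Same-numbered samples were not treated as pairs: their deviations correlated between -0.18 and 0.53, and 8 of 12 were most alike to their own number. Between tissues these were 2 of 3 in knockout and 1 of 3 in floxed mice. Between genotypes, which are different mice, they were 2 of 3 in ileum and 3 of 3 in colon. The count therefore cannot show that same-numbered samples share a mouse. A replicate block gave 339, 251 and 759 genes called in knockout, floxed and both, and 8, 7 and 8 members, Slc3a1 in floxed mice being added (1.77, adjusted p = 0.00509). No other member's call changed.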

Other observations

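Slc6a14, a carrier of neutral and basic amino acids known from colon and inflamed gut, had the largest knockout minus floxed estimate among the 32 other plasma membrane transporters in ileum. It had 7.20, 5.19 and 5.03 in ileum knockout and 4.44, 4.15 and 5.19 in ileum floxed mucosa, and 7.10, 5.97 and 5.95 in colon knockout and 6.12, 4.91 and 5.23 in colon floxed mucosa. The genotypes overlapped in both tissues, and ileum knockout 1 was the highest ileum array. The difference was 1.21 in ileum (95% interval 0.07 to 2.36, unadjusted p = 0.0398, adjusted p = 0.711 by limma) and 0.92 in colon (95% interval -0.23 to 2.07, adjusted p = 0.844 by limma). Without ileum knockout 1 the ileum difference was 0.52 (adjusted p = 0.999 by limma), and the colon difference was 0.54 without colon knockout 1 (adjusted p = 1.00 by limma). None of the 32 was called for genotype in ileum, colon or both tissues by limma, and 2, 1 and 4 of them had an unadjusted p under 0.05. Of all genes 6.65%, 4.78% and 10.7% did, so these counts are close to the shares over all genes.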
